A study of Solanum lycopersicum with 8 samples.

Results

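The genes described here encode 9 proteins of the photosynthetic electron transport chain in tomato (Solanum lycopersicum, cultivar M82), 9 of 34725 genes counted in the deposited files. They were chosen by gene ID as 4 proteins of photosystem II (PsbO, PsbP, PsbQ and PsbS), 3 subunits of photosystem I (PsaD, PsaF and PsaH), and the electron carriers plastocyanin and ferredoxin-NADP reductase (FNR). All 9 IDs were present and all 9 had enough counts to be tested. RNA was sequenced from gland cells of type VI trichomes, the leaf hairs that carry a small head of secretory cells, and from leaves whose trichomes had been scraped off. Each tissue had 4 libraries, of plants grown for 5 weeks at 28 °C and 250 µE of light. Leaf and trichome libraries with the same replicate number are taken here as 1 collection, a pairing that the sample titles do not state. By their labels the leaf libraries come from the af (anthocyanin free) mutant and the trichome libraries from complemented line #4, which is 1 line. The protocols in the labels take both tissues from the same plants, which conflicts with those genotypes, so tissue and genotype cannot be told apart if the genotype labels hold.

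In photosynthetic electron transport, photosystem II takes electrons from water, with PsbO, PsbP and PsbQ on the lumen side of its oxygen-evolving centre. Electrons pass through the cytochrome b6f complex to plastocyanin, a small copper protein of the lumen, which hands them to photosystem I at a docking site formed in part by PsaF. On the stromal side PsaD helps to dock ferredoxin, and FNR uses reduced ferredoxin to make NADPH. All of these proteins are encoded in the nucleus and imported into the chloroplast. Gland cells of tomato type VI trichomes are known to contain chloroplasts, although the mesophyll is the main photosynthetic tissue of the leaf.

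The reads counted in genes numbered 19209754 to 34941715 in leaf and 24596280 to 26514416 in trichome libraries. The labelled tissues were checked with 14 marker genes. The 4 gland markers PHS1, NDPS1, TPS12 and MTS1 were higher in trichome in 4 of 4 cases, (background 33.9%), with a summed level of 9058 to 15840 CPM (read counts scaled to a TMM-normalized library size) against 44.8 to 100.7 in leaf, so gland transcripts were low but not absent in leaf. CHI1 (Solyc05g010320), the chalcone isomerase gene affected in af, was at 99.2 to 283.7 CPM in leaf and rose to between 1421 and 1687 CPM in trichome, a difference that separates neither tissue from genotype nor the reverse.

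All 9 genes fell in trichome, and for none of them did the leaf and trichome libraries overlap. In edgeR's quasi-likelihood test 9 of 9 were called lower, where 38.5% of the 20409 tested genes were called lower (adjusted p under 0.05). All 9 fell by at least 2-fold, against 31.6% of tested genes, and non-overlapping groups with trichome below leaf were found for 36.8% of tested genes. The median log2 fold change was -3.23 over the 9 genes and -0.09 over all tested genes. Together the 9 genes took 1.85% to 2.22% of all gene counts in leaf and 0.241% to 0.284% in trichome. These are bulk RNA samples, so fewer cells that make a transcript and less of it per cell cannot be told apart.

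**Figure D1:**
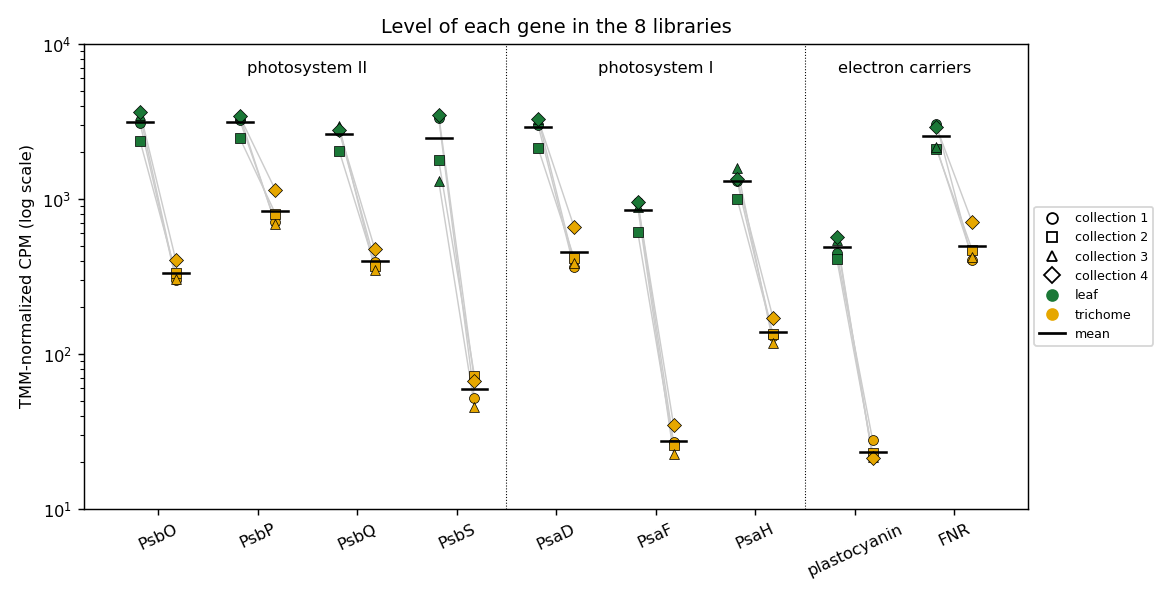
Level of each of the 9 genes in the 4 leaf and 4 trichome libraries, in TMM-normalized CPM on a log axis, with 1 point per library, grey lines joining the libraries of a collection and black bars at the group means. For every gene all 4 trichome points lie below all 4 leaf points, with the widest drop for PsbS (from a mean of 2483 to 59.0 CPM) and the smallest for PsbP (from 3158 to 835 CPM).

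The fall was unequal. Trichome libraries kept between 2.38% (PsbS) and 26.4% (PsbP) of the leaf mean, an 11.1-fold range, and both ends of that range were photosystem II genes. By mean share the order was PsbP, FNR (19.5%), PsaD (15.7%), PsbQ (15.0%), PsbO (10.7%), PsaH (10.6%), plastocyanin (4.76%), PsaF (3.23%) and PsbS. PsbP was first and plastocyanin seventh in all 4 collections, while the places of the other 7 genes shifted by up to 2 ranks.

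PsbO (Solyc02g065400) stabilises the manganese cluster that splits water. It had 3075, 2366, 3458 and 3633 CPM in leaf replicates 1 to 4 and 300.6, 330.9, 304.5 and 400.7 CPM in trichome replicates 1 to 4. The lowest leaf library was 5.90 times the highest trichome library, and the log2 fold change was -3.23 (SE 0.25, edgeR adjusted p = 4.44e-06).

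PsbP (Solyc07g044860), an extrinsic subunit that helps to hold calcium and chloride at the water-splitting centre, had 3251, 2486, 3465 and 3430 CPM in leaf and 708.3, 802.2, 688.8 and 1140 CPM in trichome. Trichome replicate 4 stood highest in its group, yet the lowest leaf library was still 2.18 times as high, the narrowest gap of the 9 genes. The log2 fold change was -1.92 (SE 0.26, edgeR adjusted p = 1.43e-04), and 22.9% of tested genes had a more negative one.

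PsbQ (Solyc02g079950), the third extrinsic subunit, had 2751, 2047, 2954 and 2787 CPM in leaf and 390.9, 368.5, 347.4 and 471.9 CPM in trichome. Its groups lay apart by a factor of 4.34, and its log2 fold change was -2.74 (SE 0.23, edgeR adjusted p = 7.57e-06). PsbO, PsbP and PsbQ sit at the same centre, but they kept 10.7%, 26.4% and 15.0% of their leaf levels.

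PsbS (Solyc06g060340) is not part of the water-splitting centre: it senses acidification of the lumen and switches on the release of excess light energy as heat. It varied more between leaf libraries than any other of the 9 genes, with 3345, 1785, 1308 and 3496 CPM, a coefficient of variation of 44.3% against 14.5% to 19.5% for the rest. In trichome it had 51.5, 72.0, 45.7 and 66.7 CPM. Leaf replicates 2 and 3 were low and replicates 1 and 4 high, and all were at least 18.2 times the highest trichome library. The log2 fold change was -5.40 (SE 0.42, edgeR adjusted p = 4.71e-06), and 8.51% of tested genes had a more negative one. Within collections the share kept ran from 1.54% in collection 1 to 4.03% in collection 2.

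Of photosystem I, PsaD (Solyc06g054260) had 2979, 2122, 3298 and 3259 CPM in leaf and 362.4, 417.2, 387.1 and 661.3 CPM in trichome. Trichome replicate 4 was again the highest of its group. The log2 fold change was -2.67 (SE 0.29, edgeR adjusted p = 3.56e-05).

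A gene listed as PsaF (Solyc02g069450), a lumen-facing subunit, had 960.0, 612.9, 889.4 and 952.7 CPM in leaf but only 26.9, 25.7, 22.6 and 34.9 CPM in trichome. The groups lay 17.6-fold apart at their nearest libraries. On the log2 scale its change was -4.95 (SE 0.25, edgeR adjusted p = 5.49e-07), the most negative of the photosystem I genes described here.

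A gene listed as PsaH (Solyc03g120640), known from Arabidopsis for docking light-harvesting complex II during state transitions, had 1298, 994.7, 1584 and 1345 CPM in leaf and 130.3, 133.8, 117.9 and 169.9 CPM in trichome. The groups lay 5.86-fold apart at their nearest libraries, and on the log2 scale the change was -3.24 (SE 0.23, edgeR adjusted p = 2.73e-06).

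Plastocyanin (Solyc04g082010) had 446.8, 411.3, 541.0 and 567.2 CPM in leaf and 27.8, 23.0, 21.6 and 21.2 CPM in trichome. It was the only one of the 9 genes whose lowest trichome value was in replicate 4. Its log2 fold change was -4.39 (SE 0.20, edgeR adjusted p = 3.70e-07).

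A gene listed as FNR (Solyc02g083810) had 3063, 2110, 2163 and 2927 CPM in leaf and 403.9, 468.5, 421.4 and 707.4 CPM in trichome. The lowest leaf library was 2.98 times the highest trichome library. The log2 fold change was -2.36 (SE 0.28, edgeR adjusted p = 5.74e-05), and the share kept ran from 13.2% in collection 1 to 24.2% in collection 4.

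Photosystem II, photosystem I and the carriers overlapped in the shares their genes kept. The 4 photosystem II genes spanned 2.38% to 26.4% (median 12.8%), the 3 photosystem I genes 3.23% to 15.7% (median 10.6%) and the 2 carriers 4.76% and 19.5%. The range within each class was at least 4.10-fold. The class medians lay between 10.6% and 12.8%, but those of photosystem II and of the carriers are midpoints between 2 genes. When the CPM of a class were summed, photosystem II kept 14.2%, photosystem I 12.3% and the carriers 17.1% of leaf. These sums are weighted by the genes with the most reads.

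**Figure D2:**
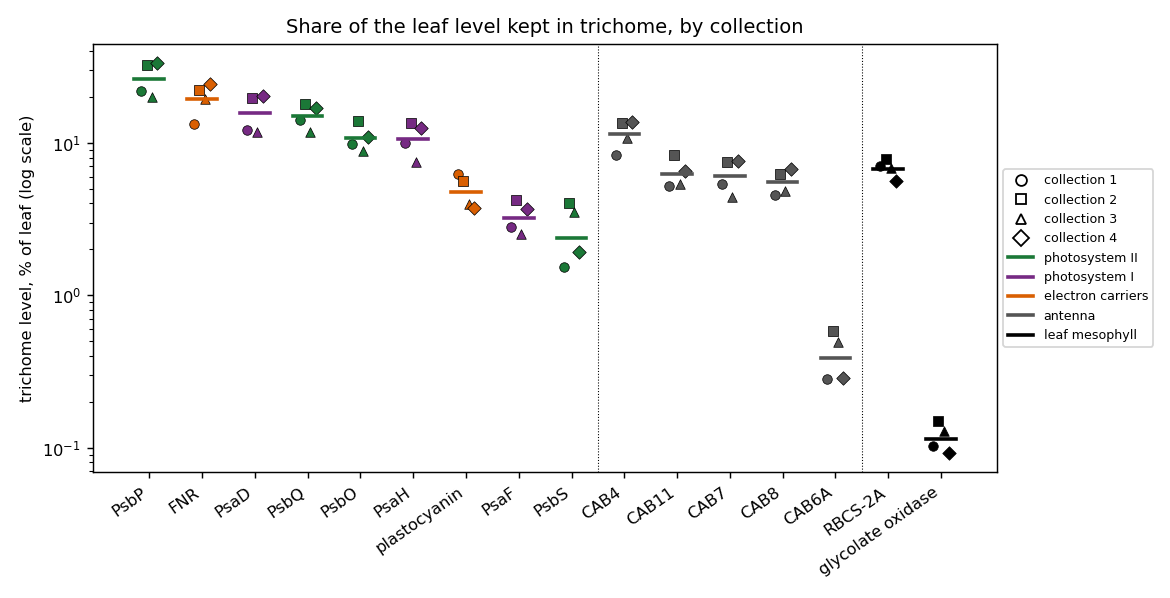
Trichome level as a percent of the leaf level (log axis) for the 9 genes in order of their mean share, then 5 antenna genes and 2 leaf mesophyll markers; points are the 4 collections and bars the ratio of group means. The classes of the 9 genes, shown by colour, are interleaved from PsbP at 26.4% to PsbS at 2.38%, and of the mesophyll markers glycolate oxidase lies below all of them at 0.113%, while RBCS-2A at 6.72% lies above plastocyanin, PsaF and PsbS.

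The make-up of the 9-gene pool, which does not depend on scaling between libraries, was compared as well. Photosystem II genes took 56.9% to 59.6% of the pool's counts in leaf and 56.6% to 60.4% in trichome, so the tissues overlapped. Photosystem I genes took 24.7% to 29.4% in leaf and 21.6% to 23.6% in trichome, lower in all 4 trichome libraries than in any leaf library. The carriers took 13.8% to 16.9% in leaf and 17.97% to 19.8% in trichome, without overlap in the other direction. The even share of photosystem II hid opposite shifts within it. PsbP took 16.2% ± 1.11 of the pool in leaf and 30.02% ± 0.828 in trichome (mean ± SD, n = 4 each), and PsbS 12.5% ± 4.28 and 2.16% ± 0.402. The genes of photosystem I did not move alike either. PsaF took 4.35% ± 0.211 and 1.00% ± 0.0805, and PsaH 6.71% ± 0.939 and 5.03% ± 0.328, but PsaD took 14.9% ± 1.27 and 16.3% ± 1.24. Among the carriers FNR took 13.2% ± 1.56 and 17.9% ± 1.01, and plastocyanin 2.54% ± 0.303 and 0.880% ± 0.238. For PsbP, PsbS, FNR and plastocyanin the leaf and trichome libraries did not overlap, nor did they for PsbO, PsaF and PsaH. Those of PsbQ and PsaD overlapped. No test was made on these sums over genes.

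Whether 2 genes kept different shares was tested by the log2 ratio of their counts in the same library, trichome against leaf, for all 36 pairs. The ratio differed between tissues for 30 of 36 pairs (exact two-sided permutation test over 70 splits, p = 0.0286, adjusted p = 0.0343 over 36 pairs). This p is the smallest that 4 against 4 libraries allow. It is reached only where the leaf and trichome ratios do not overlap, so their lack of overlap in all 30 is the same result. With labels exchanged only within collections, which respects the replicate block, 0 of 36 pairs were called, since 16 arrangements give no p under 0.125. All 10 pairs within a class were called, as were 20 of 26 pairs between classes. How often pairs of other genes would be called was not tested. In edgeR's test 38.5% of all tested genes were called lower in trichome and 33.9% higher. The numbers of pairs called are therefore not shown to be particular to these genes.

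**Figure D3:**
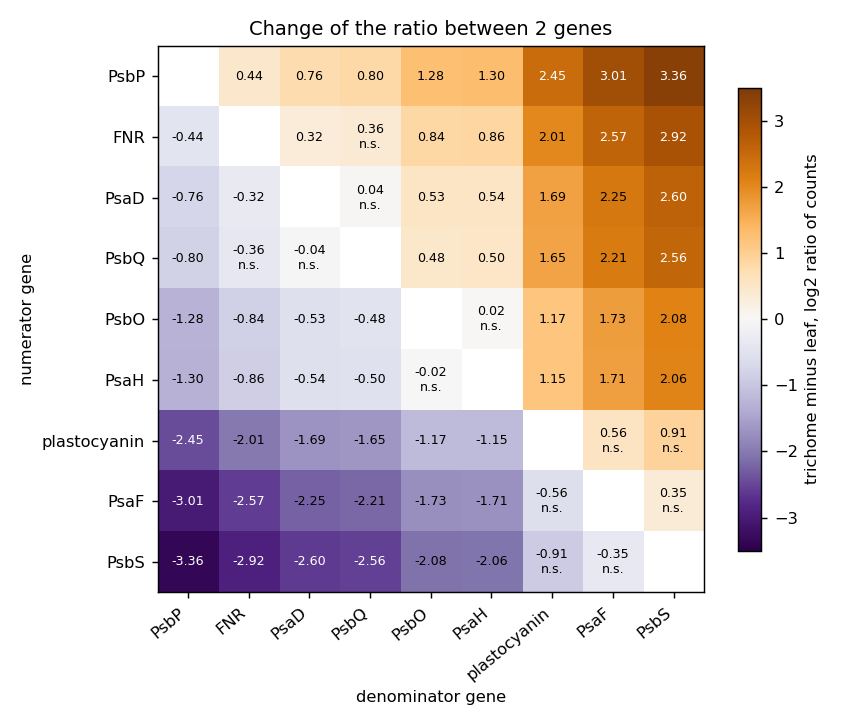
Change from leaf to trichome in the log2 ratio of counts of the row gene over the column gene (mean of 4 trichome minus mean of 4 leaf libraries), with genes ordered by share kept and "n.s." marking the 6 pairs whose exact permutation test was not called. The largest change, 3.36, is for PsbP over PsbS, and the pairs not called lie next to the diagonal or near it.

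Within photosystem II, counts of PsbP per 100 PsbO counts were 105.7, 105.1, 100.2 and 94.4 in leaf and 235.6, 242.5, 226.2 and 284.4 in trichome. PsbP thus kept 2.43 times the share that PsbO kept (log2 difference of PsbO over PsbP -1.28; exact permutation p = 0.0286, adjusted p = 0.0343). PsbS went the other way, from 108.8, 75.5, 37.8 and 96.2 counts per 100 PsbO counts in leaf to 17.2, 21.8, 15.0 and 16.7 in trichome. PsbP kept 10.3 times the share of PsbS, the widest contrast among the 36 pairs. Such folds between 2 genes, here and below, come from mean log2 ratios of counts. They differ somewhat from ratios of the shares by group means of CPM, which gave 11.1 for PsbP and PsbS. The call of PsbO against PsbS was lost without any single trichome library (exact permutation adjusted p 0.0686 to 0.0709), where 35 splits remain, and its log2 difference stayed between 2.01 and 2.19.

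Within photosystem I, PsaD kept 4.77 times the share of PsaF and 1.46 times that of PsaH, and PsaH kept 3.28 times the share of PsaF (exact permutation adjusted p = 0.0343 for each). The call of PsaD against PsaH was lost without leaf replicate 3 (adjusted p = 0.0643 in the exact permutation test). Counts of PsaF per 100 PsbO counts fell from 31.2, 25.9, 25.7 and 26.2 in leaf to 8.96, 7.78, 7.41 and 8.71 in trichome. Between the carriers, FNR kept 4.03 times the share of plastocyanin. FNR went from 99.6, 89.2, 62.6 and 80.6 counts per 100 PsbO counts in leaf to 134.4, 141.6, 138.4 and 176.5 in trichome. Plastocyanin fell from 14.5, 17.4, 15.6 and 15.6 to 9.25, 6.96, 7.09 and 5.29.

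**Figure D4:**
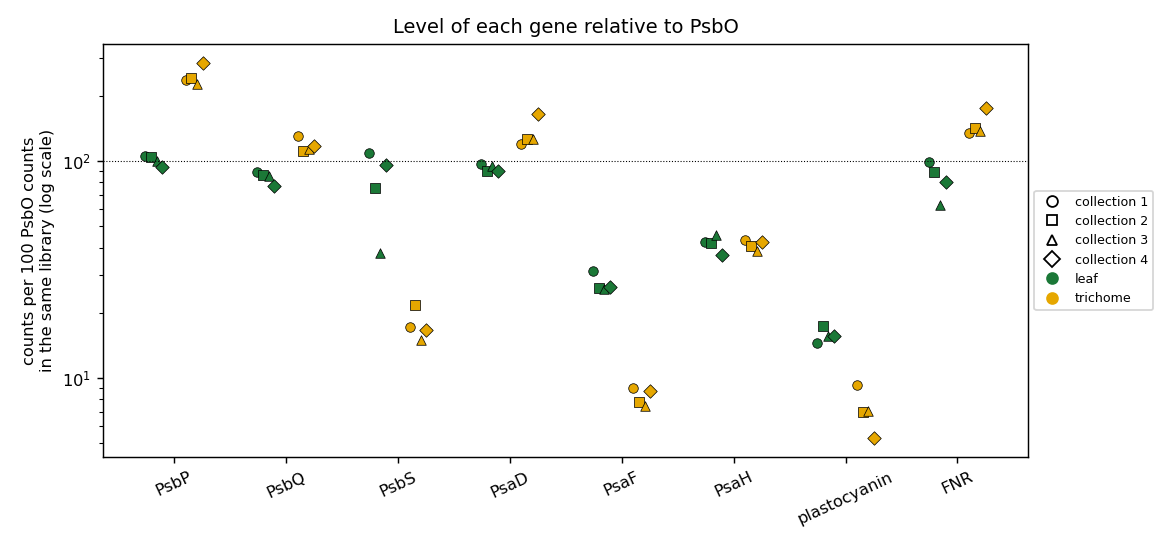
Counts of each of the other 8 genes per 100 PsbO counts in the same library (log axis), with leaf libraries in green, trichome libraries in yellow and 1 symbol per collection. PsbP, PsbQ, PsaD and FNR lie higher in trichome, PsbS, PsaF and plastocyanin lower, and PsaH overlaps; counts are not divided by gene length, so only the shift between tissues within a gene is to be read.

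Some pairs that cross the classes were close. PsaH had 42.2, 42.1, 45.8 and 37.0 counts per 100 PsbO counts in leaf and 43.4, 40.4, 38.7 and 42.4 in trichome, and the ratio of PsbO to PsaH changed by 0.02 on the log2 scale (exact permutation p = 0.886, adjusted p = 0.886). The ratio of PsbQ to PsaD changed by -0.04 on the log2 scale (exact permutation adjusted p = 0.794). The other 4 pairs not called were PsbQ with FNR, PsbS with PsaF, PsbS with plastocyanin and PsaF with plastocyanin. Their log2 differences, each for the first gene over the second, were -0.36, -0.35, -0.91 and -0.56, and their exact permutation adjusted p ran from 0.0935 to 0.363. A p above the threshold does not show that such genes kept equal shares.

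Libraries of a tissue moved together to a degree. Leaf replicate 2 was the lowest leaf library for 8 of 9 genes, the exception being PsbS, and trichome replicate 4 was the highest trichome library for 7 of 9, the exceptions being PsbS and plastocyanin. These libraries also had the highest and lowest TMM scaling factors, 1.24 and 0.773. Without those factors the pool of 9 genes was still lowest in leaf replicate 2 (1.85% of gene counts against 2.10% to 2.22%). The pool was also still highest in trichome replicate 4 (0.284% against 0.241% to 0.245%). Single genes did not all follow the pool. PsbQ was higher in trichome replicate 1 (10352 of 26393042 gene counts) than in trichome replicate 4 (9572 of 26236865). By small margins, PsbO was higher in trichome replicate 3 (8255 of 26514416) than in trichome replicate 4 (8127 of 26236865). So was PsaF in trichome replicate 1 (713 of 26393042) against trichome replicate 4 (708 of 26236865). Plastocyanin was lower in leaf replicate 1 (8865 of 19209754) than in leaf replicate 2 (11750 of 23065238). FNR was lower in leaf replicate 3 (71713 of 29377778) than in leaf replicate 2 (60288 of 23065238). Leaf replicate 3 stood apart in composition, with the fewest PsbS counts (37.8) and the fewest FNR counts (62.6) per 100 PsbO counts of any leaf library.

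Markers of leaf cells also fell in trichome. Both mesophyll markers were lower (background 38.5%), with a summed level of 11760 to 17600 CPM in leaf and 629.4 to 832.0 in trichome. Most of this sum was RBCS-2A, with 9176 to 13480 CPM in leaf and 625.8 to 827.5 in trichome. The phloem gene SUT1 (Solyc11g017010) went from 109.6 to 243.4 CPM in leaf to 1.11 to 2.32 in trichome. No leaf marker was at 0 in trichome. A gene listed as glycolate oxidase (Solyc07g056540), an enzyme of photorespiration, was at 2575 to 4432 CPM in leaf against 3.58 to 4.53 CPM in trichome, or 0.102%, 0.150%, 0.129% and 0.0923% of leaf in collections 1 to 4. In the same collections the lowest share kept by any of the 9 genes was 15.1, 26.9, 19.6 and 20.7 times as large. The other mesophyll marker, RBCS-2A (Solyc03g034220), kept 5.64% to 7.82% over the collections, above the shares of PsbS, PsaF and plastocyanin in each collection. The part of leaf cells in the trichome values was not tested. The tip-cell markers of other glandular hairs rose in 4 of 4 cases, 2 of them with groups that overlap, where 33.9% of tested genes were called higher. They summed to 0.612 to 12.3 CPM in leaf and 57.1 to 122.4 in trichome. Most of the trichome sum was ASAT3, with 54.3 to 101.7 CPM. ASAT4 had as few as 2 counts in a trichome library, and the lowest leaf count of ASAT1 and of ASAT4 was 0. Of 3 markers of other epidermal cells 1 rose (background 33.9%) and 2 fell (background 38.5%), and the groups of CD1, which fell, overlap. Their summed level was 370.4 to 588.1 CPM in leaf and 371.7 to 620.7 in trichome. No marker of these last 2 lists was at 0 in all libraries of a tissue. The part of these other hairs and epidermal cells in the results was not tested.

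Other genes of photosynthesis were taken from a list of 17 IDs, of which 6 could be matched by name to the reference table and are used. All 6 fell (background 38.5%), with a median share kept of 6.16% against 10.7% for the 9 genes. CAB4 (Solyc07g047850), a light-harvesting protein of photosystem II, kept 11.5%. The photosystem I antenna genes CAB11 (Solyc03g115900), CAB7 (Solyc10g006230) and CAB8 (Solyc10g007690) kept 6.25%, 6.08% and 5.54%. CAB6A (Solyc05g056050), a further photosystem I antenna gene, kept 0.387%, with 1027 to 1771 CPM in leaf against 4.98 to 7.53 CPM in trichome. The Rubisco small subunit gene RBCS-2A (Solyc03g034220) kept 6.72%. Apart from CAB6A, the antenna genes kept 5.54% to 11.5%.

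By pattern over the 8 libraries, the genes most like the mean profile of the 9 were Solyc12g010380 (Pearson r = 0.9998) and Solyc11g045110 (r = 0.9994). They kept 13.7% and 0.580% of their leaf levels. The trichome mean of Solyc11g045110 was only 0.2 CPM, where 3 counts equal 0.113 to 0.122 CPM, so its share and r rest on few reads there. The 2 genes were picked for the highest r among 11756 genes with a mean of at least 10 CPM, of which 426 reached an r of 0.99. Both are given as a description, since the 8 libraries fall into 2 clusters. The 9 genes do not lie together in the genome: their IDs place 4 on chromosome 2, 2 on chromosome 6 and 1 each on chromosomes 3, 4 and 7.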

How the data were processed

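The authors deposited raw read counts per gene, 1 file per library. The submitters' processing notes name Trimmomatic, TopHat2, SAMtools and HTSeq but no version of them. Build, annotation and strand setting are not given in the sources used, so overlapping, antisense or near-identical genes are uncertain. HTSeq's 5 summary lines (12.7% to 14.5% of lines counted in leaf, 18.4% to 24.4% in trichome) were left out; among them reads aligned to several places took 2.87% to 4.44% in leaf and 4.64% to 6.70% in trichome, which can lower genes with close copies. Of the members' names, 6 of 9 matched a RefSeq gene (SLM_r2.1) by name, chromosome and relative position among protein-coding genes within 5 percentage points. PsaF, PsaH and FNR have no such entry and rest on the list alone ("listed as"), as do glycolate oxidase, ASAT2 and ASAT4 among the markers.

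The test across all genes was that of edgeR 4.0.16, run under R 4.3.3 (filterByExpr, TMM, quasi-likelihood test, no block, Benjamini-Hochberg over 20409 genes). Fold changes are trichome over leaf, with approximate SEs, and n = 4 per tissue. CPM use TMM-scaled library sizes. Shares kept are ratios of group means of CPM. Ratios of 2 genes used counts + 0.5 and an exact permutation test. The scripts were first tested on simulated data. A count of 3, the limit that a 0 allows, equalled 0.0859 to 0.156 CPM in leaf libraries (0.113 to 0.122 in trichome), for counting error only; the smallest count of any member was 430. Alternatives included DESeq2 1.42.0 and limma-voom (limma 3.58.1). The collection numbers were taken to pair libraries because of the shared plants in the protocols, although the genotype labels conflict; deviations of same-numbered libraries correlated at 0.0842 to 0.213, and others at -0.238 to 0.139. The members, lists and tests were chosen with earlier results of these data known. Pathway IDs were listed from general knowledge and used only where the table matched them (6 of 17). Named genes were the 9 members, the pathway and marker lists, and the 2 genes most like the members' mean profile. CHI1, the gene affected in af, was added to check the labels.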

Additional observations from a re-analysis of the deposited data

How the results depend on the processing

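All 9 genes remained called lower under each of the 21 alternatives to the edgeR fit: no scaling factors, RLE or upper-quartile ones, no filter on low counts or one of 5 CPM in 4 libraries, omission of the 10 most abundant genes of each tissue, DESeq2, limma-voom, the replicate block, and omission of each library or collection. The highest adjusted p was 0.00356 (PsbP without collection 1). With the replicate block the count of members called lower was 9, and no call of a member changed. Calls over all genes ran from 5594 to 9234 lower (7855 in the chosen fit) and from 5259 to 7359 higher (6925). Library size alone shifted the median gene by -0.215 on the log2 scale, and the shares kept then ran from 2.08% (PsbS) to 22.4% (PsbP). Leaving out libraries or collections gave 2.01% to 2.79% for PsbS, 23.1% to 28.8% for PsbP and 16.7% to 22.1% for FNR. Of 36 pair ratios, 30 were called with no pseudocount or one of 5, 26 to 30 without single libraries, and 0 with labels exchanged within collections (replicate block), where no p can fall under 0.125. PsbP against FNR, PsbS against PsaH and PsaD against FNR also lost their calls without any single trichome library. Of the pairs not called, PsbO over PsaH changed sign without leaf replicate 3 (-0.0297) and trichome replicate 3 (-0.0138), with up to 0.0724 without other libraries, and PsbQ over PsaD without trichome replicate 4 (0.0624), with down to -0.136 without others. PsbS with plastocyanin was called without leaf replicate 3 and PsaF with plastocyanin without trichome replicate 4.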

Other observations

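PsaF (3.23%) and plastocyanin (4.76%), lumen-side partners of the step into photosystem I, kept less of their leaf level than PsaD and FNR. On the stromal side PsaD (15.7%) helps to dock ferredoxin, and FNR (19.5%) acts later, on reduced ferredoxin. Ferredoxin itself was not among the genes used. All 4 pairs across these sides were among those called (exact permutation adjusted p = 0.0343; 0 of 36 pairs with labels exchanged within collections). PsbO, PsbP and PsbQ, which also face the lumen, kept 10.7% to 26.4%, and PsaH, which faces the stroma, kept 10.6%. This grouping was chosen after the values were seen, so the calls of those 4 pairs do not test it.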
